A study of Mus musculus with 10 samples.

Results

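Transcript levels of 10 genes, listed as focal adhesion and cortactin substrates of Src family kinases, were followed in left atria of adult mice. The 10 are Ptk2, Ptk2b, Pxn, Bcar1, Nedd9, Crk, Tln1, Vcl, Cttn and Cav1. They were chosen by symbol, through the Ensembl identifiers in the count files, and all 10 were found among 37583 gene rows and passed the filter on low counts that left 15364 genes. Poly(A) RNA was sequenced from 10 libraries in 4 groups. Mice given ibrutinib (IBR), a drug that blocks Bruton's tyrosine kinase in B cell cancers, were set against mice given vehicle (CTL), with 3 libraries each. Mice labelled as carrying a cardiac knockout of Csk (KO) were set against untreated wild-type mice (WT), with 2 libraries each. Csk encodes the kinase that holds Src family kinases inactive, and the title of the series speaks of fibrillation of the atria with the drug. The strain, the age beyond adult, the drug dose, and the promoter and alleles behind the knockout are not stated in the labels. Nothing there says that libraries of a group came from separate animals, so a p-value speaks only of the spread among these libraries, which may be technical.

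Focal adhesions are the sites where integrins tie the matrix outside a cell to its actin filaments, and in heart muscle the same proteins sit in costameres and at the ends of the cell. When integrins cluster, focal adhesion kinase phosphorylates itself and so recruits Src, and the pair phosphorylates paxillin and the Cas scaffolds, which then bind Crk and pass the signal on to small GTPases. Src acts on tyrosines of proteins, so messenger levels measure how much template is present and not how much of a protein is phosphorylated.

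Total counts on genes ran from 14907331 to 19960947 per library, and every one of the 10 genes had at least 263 reads in each library. Csk did not follow the genotype label. It stood at 24.7 and 35.5 CPM (normalised read counts, scaled between libraries by trimmed means, TMM) in KO26 and KO337, against 18.3 and 17.8 CPM in WT35 and WT338, a log2 difference of 0.74 (SE 0.18, adjusted p = 0.0608), so these libraries are called labelled KO. Since reads were summed over the gene and over all cells of the atrium, a deletion limited to heart muscle cells cannot be checked this way. KO26 and KO337 differed more from each other (Spearman correlation 0.955) than any other pair within a group (0.984 to 0.991). The heart muscle genes Myh6 and Actc1 had means of 34721 and 8662 CPM over all libraries. The summed level of 10 heart muscle markers was 84372 to 90324 CPM in IBR and 90360 to 103275 CPM in CTL, and 64324 and 32869 CPM in KO26 and KO337 against 87555 and 82567 CPM in WT. Leukocyte, fibroblast and endothelial markers were also present, at summed levels of 80.1 to 876, 1058 to 12528 and 718 to 2192 CPM over all libraries, led by Csf1r and Laptm5 (means of 78.8 and 37.7 CPM), Dcn and Col3a1 (1110.3 and 667 CPM) and Pecam1 and Vwf (306 and 257 CPM). Of the other markers, Rgs5 and Pdgfrb of pericytes averaged 256 and 58.5 CPM, Upk3b and Msln of mesothelium 119 and 67.2 CPM, Sox10 of glia 1.22 CPM, and Cfd and Plin1 of fat 4.97 and 1.33 CPM. The fat genes Adipoq and Lep and the nerve gene Th were at 0 in at least 1 library.

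The 10 genes spanned a wide range of levels, which can be compared between genes only per length of transcript. In CTL atria Cav1 stood highest, at 119 ± 6.72 CPM per kilobase of merged exons (SD, n = 3). Crk followed at 34.9 ± 4.48 and Tln1 at 26.7 ± 3.16 CPM per kilobase. Cttn, Vcl and Bcar1 lay at 19.1 ± 1.69, 14.6 ± 1.62 and 11.2 ± 1.29 CPM per kilobase. The 2 FAK family kinases and Nedd9 lay at the low end, with 6.59 ± 0.242 for Ptk2b, 3.73 ± 0.536 for Ptk2 and 3.08 ± 0.637 CPM per kilobase for Nedd9, and Pxn stood above them at 7.99 ± 1.49. Between neighbours in this order, the ranges of the 3 CTL libraries overlapped only for Ptk2 and Nedd9. The order rests on the length used. Over all libraries Ptk2 averaged 4.15 CPM per kilobase of its 11803 bases of merged exons and 10.5 CPM per kilobase of its longest transcript of 4678 bases.

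**Figure D1:**
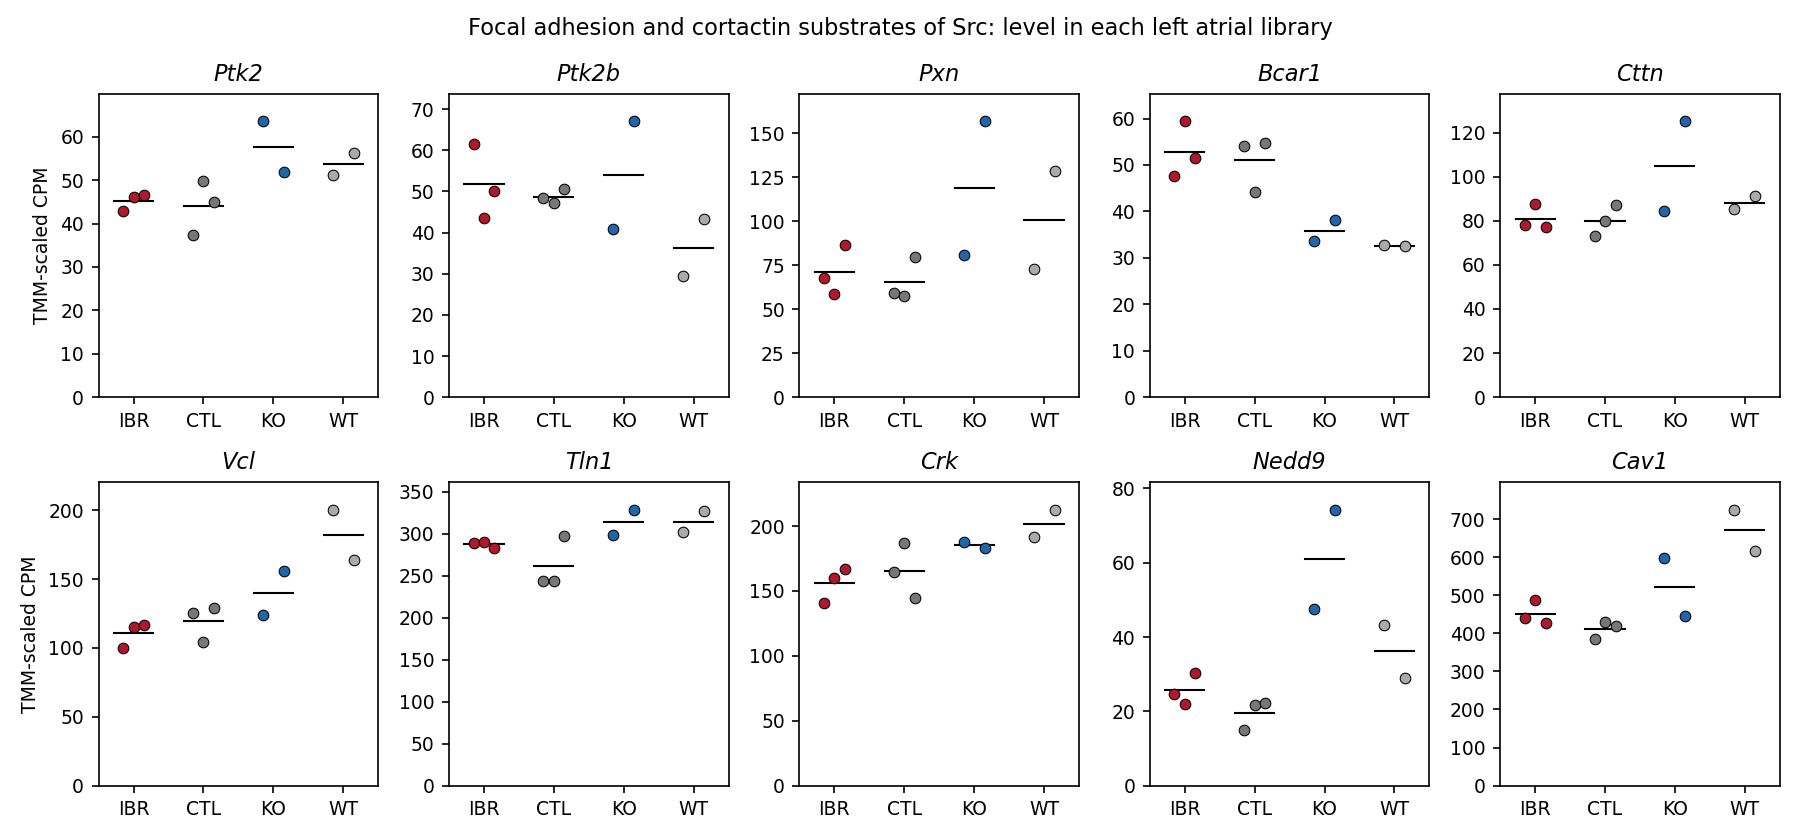
TMM-scaled CPM of each of the 10 genes (y axis, from 0) in every library of IBR, CTL, KO and WT (x axis); points are libraries and bars group means. IBR and CTL points overlap for all 10 genes, and the KO points of Nedd9, at 47.7 and 74.3 CPM, lie above both WT points.

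With ibrutinib, 0 of the 10 genes were called by the quasi-likelihood test of edgeR (adjusted p under 0.05), beside 0% of the 15364 genes tested, of which 848 (5.52%) had an unadjusted p under 0.05. DESeq2 also called 0 of the 10, and 2 genes in all. The IBR and CTL libraries overlapped for all 10 genes, while they did not for 13.5% of genes tested (5.91% higher and 7.55% lower in IBR). Positive differences were seen for 8 of the 10 and for 44.7% of all genes. The median difference of the 10 was 0.07 on the log2 scale, beside -0.03 for all genes. In the labelled knockout comparison 0 of the 10 were called too, beside 2.21% of genes (201 or 1.31% higher and 138 or 0.898% lower). There 2 of the 10 had an unadjusted p under 0.05, beside 25.7% of genes. The groups did not overlap for 5 of the 10, beside 53.2% of genes, with 2 higher (26.3% of genes) and 3 lower (26.9%). Differences were positive for 6 of the 10 and for 50.7% of genes, and the median difference was 0.12, beside 0.01 for all genes. Without scaling factors, 295 genes were called higher and 66 lower, and the median of all genes moved to 0.23.

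Of the 2 FAK family kinases, Ptk2 (ENSMUSG00000022607) encodes focal adhesion kinase itself, the docking partner of Src. It stood at 42.8, 46.1 and 46.5 CPM in IBR, against 37.3, 49.9 and 45 CPM in CTL. The labelled KO libraries had 63.6 and 51.8 CPM, against 51.1 and 56.3 CPM in WT. Both pairs of groups overlapped, and the 95% intervals of the log2 differences ran from -0.27 to 0.34 for IBR and from -0.26 to 0.47 for KO, so that the upper bound for KO was 1.39-fold. Ptk2b (ENSMUSG00000059456) encodes Pyk2, the calcium-responsive relative of FAK. Its level was 61.6, 43.5 and 50.1 CPM in IBR, against 48.4, 47.1 and 50.7 CPM in CTL, where the drug libraries lay on both sides of the vehicle ones. The labelled KO libraries gave 41 and 67.1 CPM, against 29.4 and 43.2 CPM in WT. KO337 stood alone above all 3 others, and the difference of 0.58 (SE 0.26, adjusted p = 0.189) was 0.16 without KO337.

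Among the scaffolds, paxillin (Pxn, ENSMUSG00000029528) is the hub that FAK and Src phosphorylate together. It had 67.4, 58.8 and 86.5 CPM in IBR, against 59.2, 57.7 and 79.6 CPM in CTL, and 80.9 and 157 CPM in the labelled KO libraries, against 72.9 and 128 CPM in WT. The libraries within each genotype lay further apart than the means of the genotypes, and the interval for KO, -0.53 to 1.02 on the log2 scale, was the widest of the 10. The differences of 0.11 in IBR and 0.24 in KO had adjusted p of 0.949 and 0.694. Bcar1 (ENSMUSG00000031955) encodes p130Cas, whose repeated tyrosines Src phosphorylates when the protein is stretched. It stood at 47.6, 59.4 and 51.5 CPM in IBR against 54.1, 44.2 and 54.7 CPM in CTL, and at 33.6 and 38.1 CPM in the labelled KO libraries against 32.7 and 32.5 CPM in WT. IBR and CTL overlapped, with a difference of 0.05 (SE 0.13). Both labelled KO libraries lay above WT, with a difference of 0.14 (SE 0.16, adjusted p = 0.625). Crk (ENSMUSG00000017776), the adaptor that binds phosphorylated Cas and paxillin, had 141, 160 and 167 CPM in IBR against 164, 187 and 145 CPM in CTL. It had 188 and 183 CPM in the labelled KO libraries against 191 and 213 CPM in WT. Its differences of -0.08 and -0.12 had adjusted p of 0.914 and 0.662, and both turned positive, to 0.0026 and 0.10, without scaling factors.

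Nedd9 (ENSMUSG00000021365), the second Cas scaffold, also called Hef1 or Cas-L and known from lymphocyte adhesion, had the largest difference of the 10 in both comparisons, and neither was called. It stood at 24.7, 21.9 and 30.3 CPM in IBR, against 15, 21.7 and 22.3 CPM in CTL. IBR2 lay just below CTL3 and the other drug libraries above all vehicle ones, with a log2 difference of 0.39 (SE 0.23, 95% interval -0.13 to 0.91, adjusted p = 0.823). The labelled KO libraries had 47.7 and 74.3 CPM, against 43.2 and 29.1 CPM in WT. Both lay above WT, with a difference of 0.75 (SE 0.28, 95% interval 0.13 to 1.38) and an adjusted p of 0.134. The summed level of the 10 leukocyte markers was 310 and 876 CPM in KO26 and KO337 and 157 and 163 CPM in WT, with all 10 members higher and 5 of them called. In IBR it was 131 to 167 CPM, against 80.1 to 122 CPM in CTL, with all 10 members positive and 0 called. Fibroblast markers summed to 3241 and 12528 CPM in KO26 and KO337 and 2775 and 2550.1 CPM in WT, with a median difference of 1.56, all 9 positive and 0 called. Smooth muscle and pericyte markers summed to 515 and 1003 CPM in the labelled KO libraries and 455 and 443 CPM in WT, with a median of 1.21, 7 of 8 positive and 0 called. The part of these 3 marker lists in the Nedd9, Ptk2b and other KO values was not tested. In bulk tissue a larger share of cells of a type and more RNA per cell cannot be told apart.

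Of the actin linkers, talin 1 (Tln1, ENSMUSG00000028465) switches integrins on and joins them to actin. It stood at 289, 291 and 283 CPM in IBR against 243, 244 and 297 CPM in CTL, and at 299 and 329 CPM in the labelled KO libraries against 302 and 327 CPM in WT. The ranges of the labelled KO and WT libraries were nearly the same. Its difference in IBR against CTL was 0.14 (SE 0.13, adjusted p = 0.864), with CTL3 above all drug libraries. The KO difference was -0.00 (SE 0.16, 95% interval -0.36 to 0.35), and 0.22 without scaling factors. Vinculin (Vcl, ENSMUSG00000021823) binds stretched talin and strengthens the link. It had 100.2, 115 and 117 CPM in IBR against 125, 104 and 129 CPM in CTL, an overlapping pair with a difference of -0.11 (SE 0.14, adjusted p = 0.899). In the labelled KO libraries it had 124 and 156 CPM, against 200.4 and 164 CPM in WT. Both lay below WT, with a difference of -0.38 (SE 0.18, 95% interval -0.77 to 0.01) and an adjusted p of 0.202. Counting ignored strand, and in the GENCODE vM21 annotation 25.5% of the exon bases of Vcl are shared with Ap3m1 on the other strand, so part of the reads of Vcl cannot be assigned. For Tln1 the share, with Creb3, is 3.67%.

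Vcl and Nedd9 lay at opposite ends of the labelled knockout comparison, and their promoters, 250 bases before to 50 after the start, are shown for that reason, 5′ to 3′ in the gene's direction, from RefSeq on GRCm38.p6. Capitals mark GC boxes (GGGCGG on either strand) and, in Vcl, the CArG box that serum response factor is known to bind.
Vcl, chr14:20929148-20929447, plus strand: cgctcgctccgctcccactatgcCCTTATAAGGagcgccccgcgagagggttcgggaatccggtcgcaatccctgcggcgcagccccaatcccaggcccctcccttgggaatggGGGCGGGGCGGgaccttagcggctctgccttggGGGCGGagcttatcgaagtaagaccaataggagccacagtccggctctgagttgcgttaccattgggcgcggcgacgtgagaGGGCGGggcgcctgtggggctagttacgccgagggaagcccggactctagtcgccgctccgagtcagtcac
Nedd9, chr13:41358952-41359251, minus strand: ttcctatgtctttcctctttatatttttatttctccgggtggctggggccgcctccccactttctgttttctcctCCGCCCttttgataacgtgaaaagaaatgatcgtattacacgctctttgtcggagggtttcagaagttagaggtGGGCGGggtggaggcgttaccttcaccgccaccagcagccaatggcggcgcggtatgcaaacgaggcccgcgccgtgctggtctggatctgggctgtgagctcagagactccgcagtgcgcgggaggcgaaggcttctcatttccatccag
The Vcl window holds 1 CArG box, a motif found in 1.63% of 32851 promoters of this length, and the other members with a promoter in the table, Nedd9, Tln1, Crk, Bcar1 and Cav1, hold 0. It also holds 4 GC boxes, the first pair overlapping, and the Nedd9 window holds 2, where 35.7% of promoters hold at least 1. Both strands were also searched for the AP-1 motif TGACTCA, which is held by 5.2% of promoters and by none of these windows. The TEAD motif CATTCC, held by 14.7% of promoters, occurs once in the Vcl window and in no other of these. The letters of a TATA box, TATAAA, are held by 13.6% of promoters and occur once in the windows of Nedd9 and Cav1. A match says only that these letters occur in the window.

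Cortactin (Cttn, ENSMUSG00000031078) holds branched actin together and takes its name from the cell cortex. It had 78.2, 87.5 and 77.1 CPM in IBR, against 73.1, 79.9 and 87.2 CPM in CTL, a difference of 0.02 (SE 0.15, adjusted p = 0.99). It had 84.5 and 125 CPM in the labelled KO libraries, against 85.4 and 91 CPM in WT. KO337 stood above the others while KO26 lay below both WT libraries, and the difference of 0.25 (SE 0.18, adjusted p = 0.414) was -0.08 without KO337. Caveolin 1 (Cav1, ENSMUSG00000007655), the coat protein of caveolae in endothelial and stromal cells and an early known Src substrate, was the most abundant of the 10. It had 441, 487 and 426 CPM in IBR, against 385, 429 and 420 CPM in CTL, a difference of 0.13 (SE 0.16, adjusted p = 0.887) with 2 of 3 drug libraries above all vehicle ones. It had 598 and 445 CPM in the labelled KO libraries, against 725 and 616 CPM in WT. Both lay below WT, with a log2 difference of -0.36 (SE 0.19, 95% interval -0.79 to 0.06, adjusted p = 0.255). The 10 endothelial markers had a median of 0.24 with 7 positive, 3 negative and 0 called. Pecam1 had 359 and 527 CPM in the labelled KO libraries against 328 and 466 CPM in WT, and Vwf and Tek lay above WT in both (0.66 and 0.58). Flt1, at 163 and 170 CPM in the labelled KO libraries against 175 and 237 CPM in WT (-0.31), and Esam (-0.10) lay below WT in both, as Cav1 did, and Cdh5 differed by -0.07. The part of endothelial markers in the Cav1 values was not tested.

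**Figure D2:**
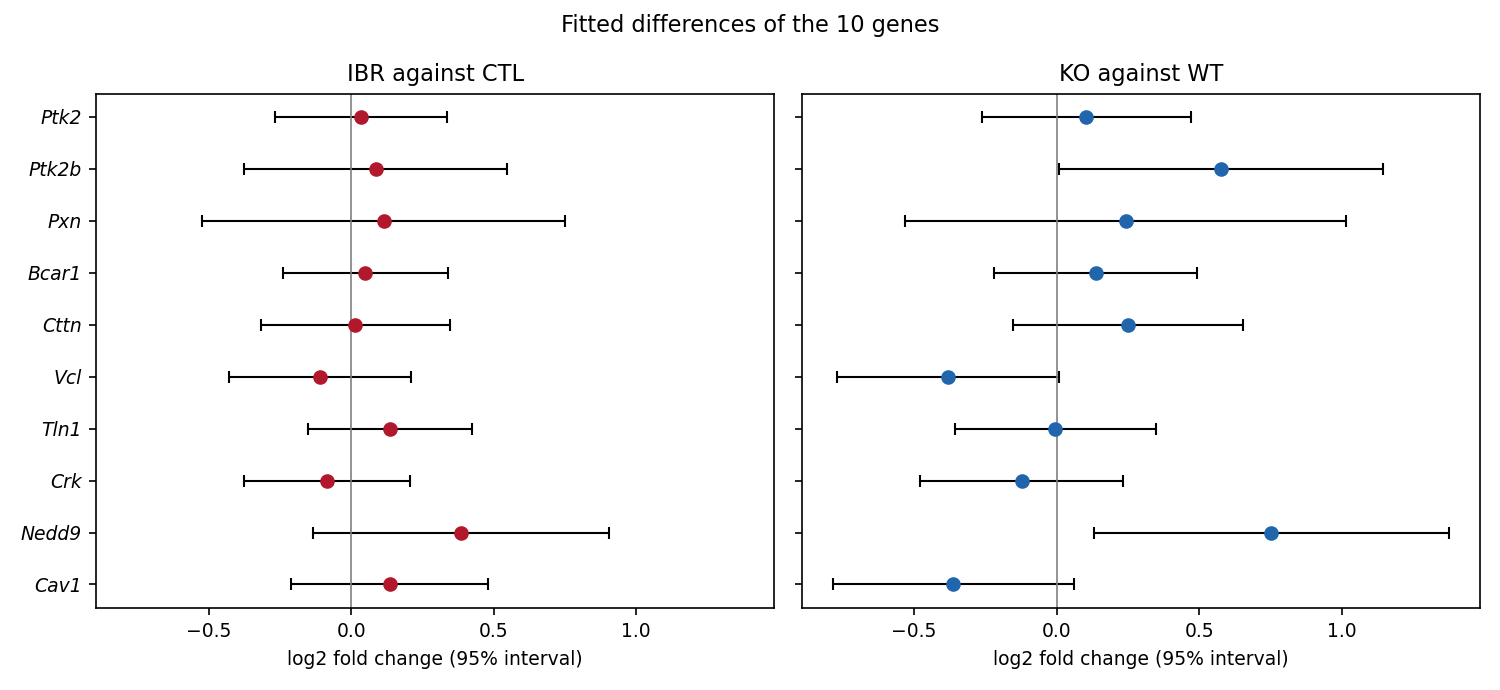
Fitted log2 fold changes (x axis) of the 10 genes (rows) for IBR against CTL (left) and KO against WT (right), with 95% intervals as bars. In IBR against CTL every interval crosses 0; in KO against WT those of Ptk2b and Nedd9 lie above 0, and both genes miss the adjusted threshold.

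The calls rested on which labelled KO library was kept. With KO337 as the single labelled KO library, assumed to vary as the other groups do, 4 of the 10 passed. Nedd9 rose by 1.02 (adjusted p = 0.0239), Ptk2b by 0.87 (adjusted p = 0.0205) and Cttn by 0.49 (adjusted p = 0.0448), and Cav1 fell by 0.61 on the log2 scale (adjusted p = 0.0292). In that fit 24.3% of 16181 genes passed. With KO26 alone none of the 10 passed, beside 0.348% of genes, and the same genes differed by 0.37, 0.16, -0.08 and -0.19. The test of a difference between the effects of the drug and the labelled knockout passed for 0 of the 10, beside 0.026% of all genes, and 0 had an unadjusted p under 0.05, beside 9.79%. That difference was positive for 6 of the 10 and for 52.7% of genes. The largest differences of effects were -0.50 for Cav1 (SE 0.25, adjusted p = 0.538), with 0.13 for the drug and -0.36 for the genotype, and 0.49 for Ptk2b (SE 0.33, adjusted p = 0.631).

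Several of the genes have a close relative that serves another cell type, and the ratio of their counts within a library does not depend on scaling. These ratios are given as descriptions, to be compared between libraries only. For single genes, the groups did not overlap for 53.2% in KO against WT and for 13.5% in IBR against CTL. The same share was not taken for ratios, so a ratio without overlap is no more than a description. Reads of Cav3, the caveolin of muscle, per read of Cav1 came to 0.104, 0.109 and 0.104 in IBR, against 0.158, 0.154 and 0.12 in CTL. They came to 0.0473 and 0.0381 in the labelled KO libraries, against 0.0598 and 0.0589 in WT. In both comparisons the groups did not overlap and the ratio was the lower one in IBR and in the labelled KO libraries. Reads of Tln2, the talin of mature muscle, per read of Tln1 came to 0.374 and 0.236 in the labelled KO libraries, against 0.509 and 0.446 in WT, with no overlap. In IBR the ratio was 0.718, 0.795 and 0.777, against 0.978, 0.941 and 0.737 in CTL, where CTL3 lay within the range of the drug libraries. Heart muscle markers had a median difference of -0.88 in KO against WT, with all 10 negative, and of -0.19 in IBR against CTL, and their part in these ratios was not tested.

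Reads of Hcls1, the cortactin of blood cells, per read of Cttn came to 0.276 and 0.282 in the labelled KO libraries, against 0.123 and 0.114 in WT. This was the one ratio in which KO26 and KO337 lay close together and far from WT. In IBR it was 0.116, 0.0715 and 0.0833, against 0.0809, 0.0929 and 0.0664 in CTL. Nedd9 per read of Bcar1 came to 1.42 and 1.95 in the labelled KO libraries, against 1.32 and 0.896 in WT, and to 0.52, 0.369 and 0.589 in IBR, against 0.277, 0.49 and 0.407 in CTL. The labelled KO libraries lay above WT, and IBR overlapped CTL. Ptk2b per read of Ptk2 overlapped in both comparisons, at 0.644 and 1.3 in the labelled KO libraries against 0.574 and 0.768 in WT.

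**Figure D3:**
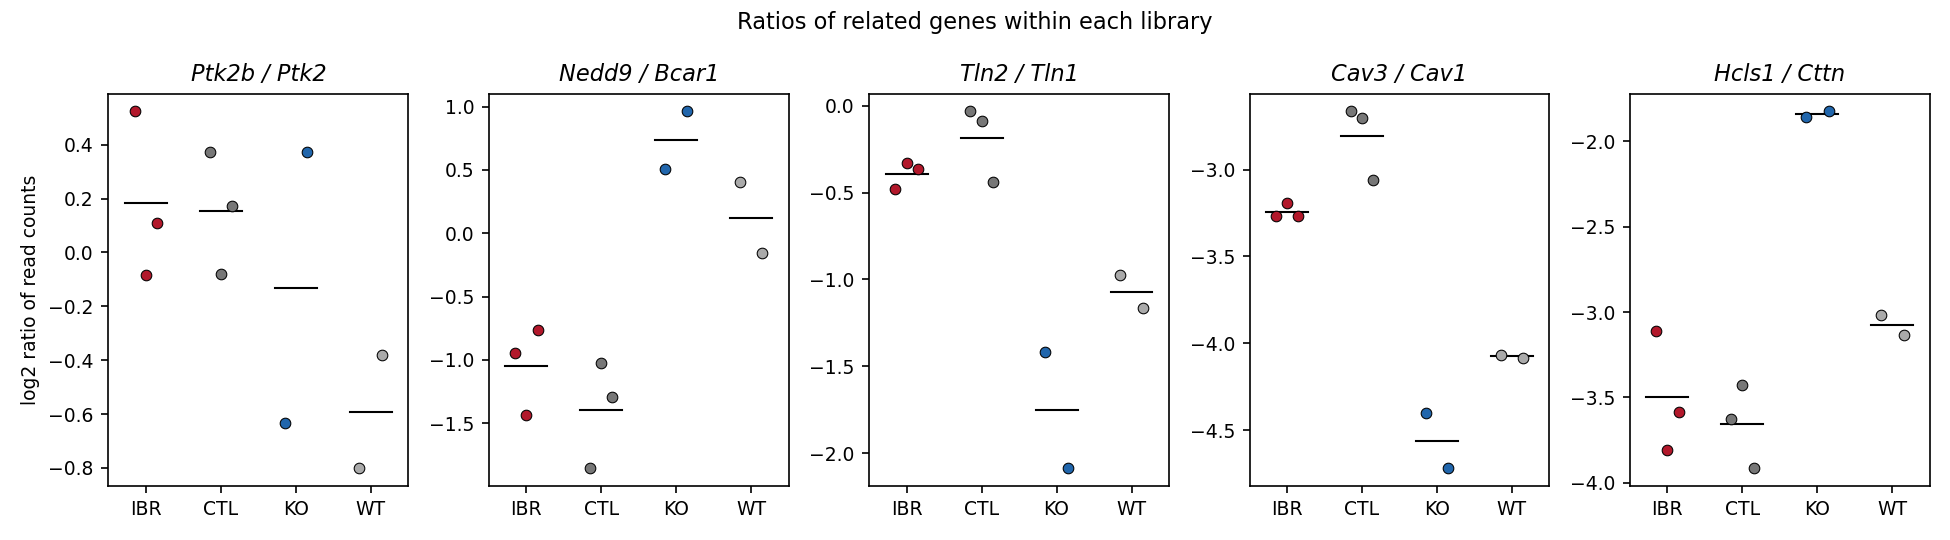
Log2 ratio of read counts (y axis) for 5 pairs of related genes in every library of IBR, CTL, KO and WT (x axis); points are libraries and bars group means. Cav3 / Cav1 is lower in every IBR than in every CTL library and lower in both KO than in both WT libraries, and Hcls1 / Cttn is higher in both KO libraries.

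The other genes of these pathways, 90 in 5 lists of which 89 were tested, held 5 calls in KO against WT, beside 2.21% of all genes, and 0 in IBR against CTL. Among 17 partners of cortactin and branched actin, 2 rose and 15 did not pass. Hcls1 rose 2.81-fold, to 23.3 and 35.3 CPM in the labelled KO libraries against 10.5 and 10.4 CPM in WT (SE 0.26 on the log2 scale, adjusted p = 0.0312). Was, the activator of the Arp2/3 complex in blood cells, rose to 5.28 and 8.56 CPM in the labelled KO libraries, against 1.73 and 1.95 CPM in WT (adjusted p = 0.0465). The median over the list was 0.41, with 16 of 17 positive, and Arpc1a, a subunit of Arp2/3, was the exception at -0.15 (adjusted p = 0.53). Of 19 tested integrin genes and activators, 1 rose and 1 fell. Fermt3, kindlin-3, which activates integrins in blood cells, rose to 15.6 and 27.5 CPM in the labelled KO libraries, against 6.73 and 6.92 CPM in WT (log2 1.66, adjusted p = 0.0398). Lims2, the adaptor PINCH2 of the integrin-linked kinase complex, fell to 44.1 and 43.8 CPM in the labelled KO libraries, against 73.1 and 112 CPM in WT (log2 -1.07, adjusted p = 0.0398). Itgb5, an integrin chain that binds vitronectin, had 130 and 362 CPM in KO26 and KO337 and 107 and 120 CPM in WT, and Tln2 differed by -0.66 (adjusted p of 0.105 and 0.0693).

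Of 19 focal adhesion adaptors and actin linkers, 1 fell and 18 did not pass. Flnc, the filamin of muscle, fell to 526 and 276 CPM in the labelled KO libraries, against 1807 and 825 CPM in WT (log2 -1.71, SE 0.37, adjusted p = 0.0473). Lpxn, a paxillin relative of leukocytes, and Tns3, a tensin, differed by 2.49 and 0.97 (adjusted p of 0.0569 and 0.0732). None of 24 signalling partners of FAK and Cas passed. The nearest were Pak1, a kinase driven by Rac and Cdc42, at 9.69 and 16.2 CPM in the labelled KO libraries against 2.82 and 2.77 CPM in WT (adjusted p = 0.053), and Efs, another Cas scaffold, at 1.05 (adjusted p = 0.0846). Arhgap26, a GTPase-activating protein that binds FAK, and the adaptor Grb2 differed by -0.62 and -0.22 (adjusted p of 0.197 and 0.374). None of 10 caveola genes passed. Their median was -0.20, with the muscle forms Cav3 and Cavin4 at -0.82 and -1.16 (adjusted p of 0.081 and 0.108), and Cavin3 and Cav2 at 0.54 and 0.32 (adjusted p of 0.224 and 0.238).

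All 5 of these calls were lost without KO337, without either WT library and when WT and KO were fitted alone. They were also lost without IBR3 (adjusted p of 0.0585 to 0.0827) and without CTL1 (adjusted p of 0.051 to 0.0764), which enter through the shared spread. Those of Flnc and Lims2 were lost on leaving out any IBR or CTL library (adjusted p of 0.0535 to 0.0827). Of these libraries, only IBR2 could be left out with the calls of Was and Fermt3 kept. Without scaling factors Flnc and Lims2 were lost too (adjusted p of 0.0556 and 0.0676). Without KO337 the log2 differences were 1.14 for Hcls1, 1.50 for Was, 1.17 for Fermt3, -1.09 for Lims2 and -1.34 for Flnc (adjusted p of 0.113 to 0.202). Without WT35 that of Flnc was -1.05 (adjusted p = 0.241). In KO against WT, Hcls1, Was and Fermt3 differed in the direction of the leukocyte markers, and Flnc and Lims2 in that of the heart muscle markers. The heart muscle sums were 64324 and 32869 CPM in KO26 and KO337, and 87555 and 82567 CPM in WT35 and WT338. In the same order of libraries, Lims2 had 44.1, 43.8, 73.1 and 112 CPM, and Flnc had 526, 276, 1807 and 825 CPM. The part of the markers was not tested.

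With ibrutinib the same lists had medians of 0.07 for integrins and activators, 0.06 for adaptors and linkers, 0.09 for FAK and Cas partners, 0.13 for cortactin partners and -0.05 for caveola genes, beside -0.03 for all genes. The nearest to a call were Tns3, at 107, 90.9 and 80.4 CPM in IBR against 64.7, 43.4 and 81.6 CPM in CTL, and Pdlim7, a LIM protein of muscle, at 34.1, 43.6 and 39.9 CPM in IBR against 53.9, 76.3 and 53.7 CPM in CTL. Both had an adjusted p of 0.823. Taking the smallest p in each list, 2 genes per direction, the others with positive differences were Lpp (0.30), Itga1 (0.26), Itgb3 (0.75), Efs (0.49), Sh2d3c (0.24), Wipf1 (0.38), Cttnbp2nl (0.33), Cav2 (0.25) and Ehd2 (0.33). With negative differences they were Lims2 (-0.27), Itgb1bp2 (-0.31), Trip6 (-0.21), Arhgef7 (-0.13), Rapgef1 (-0.18), Arpc1a (-0.11), Arpc2 (-0.11), Cav3 (-0.30) and Pacsin3 (-0.17). Fibroblast markers had a median of 0.78 in IBR against CTL, with all 9 positive and 0 called, and endothelial markers a median of 0.39, with 9 of 10 positive and 0 called.

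**Figure D4:**
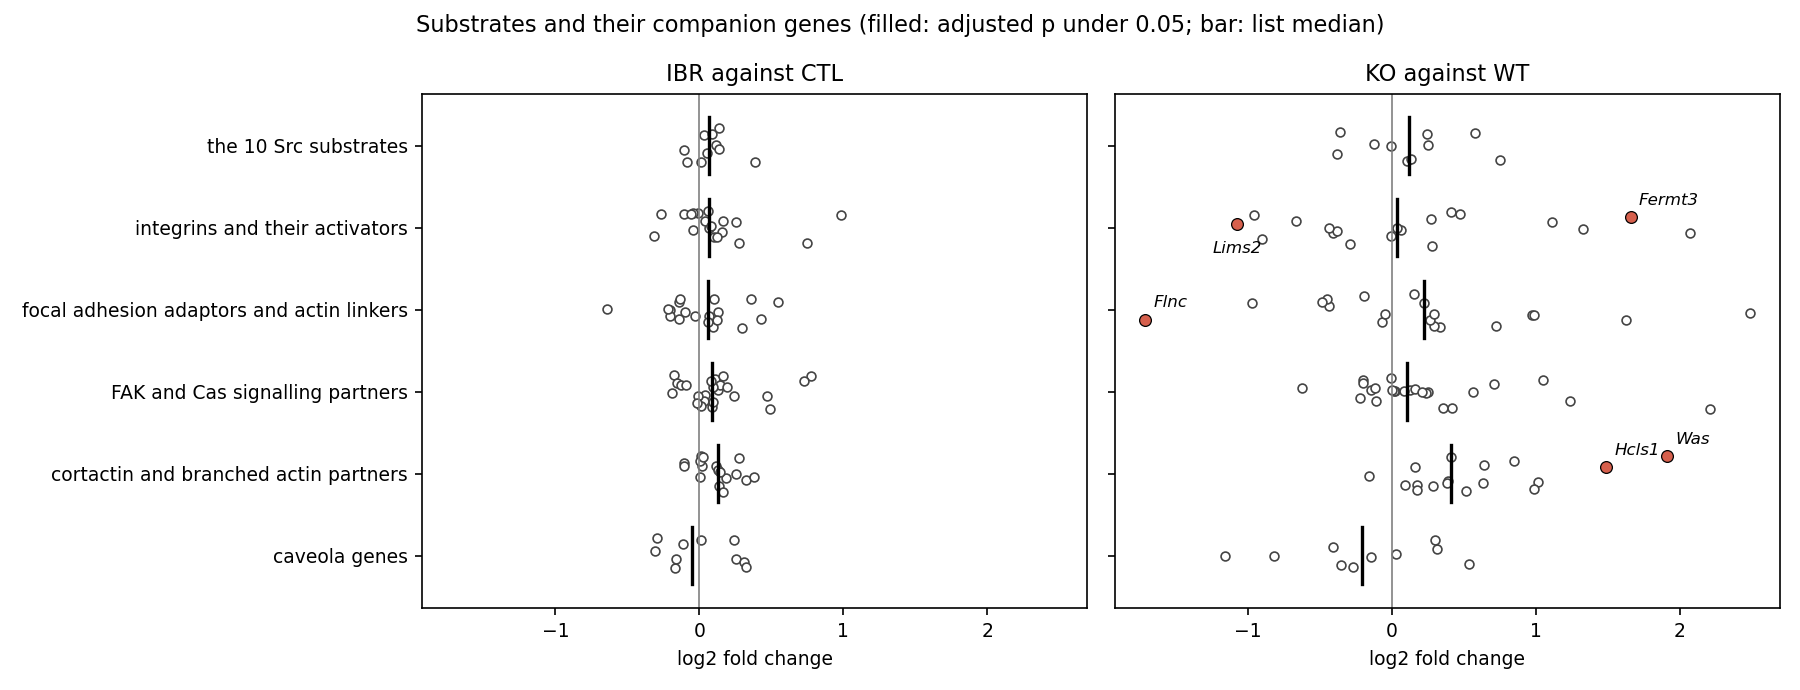
Log2 fold changes (x axis) of the 10 genes and of the tested members of 5 companion lists (rows) for IBR against CTL (left) and KO against WT (right); points are genes, filled where the adjusted p is under 0.05, and bars are list medians. All points are open for IBR, and 5 companion genes are filled for KO against WT, with none of the 10.

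The differences between both effects passed for none of the 89 companion genes. Those with the smallest p per list included Pak1 (2.40, adjusted p = 0.347), Hcls1 (1.30, adjusted p = 0.338), Was (1.78, adjusted p = 0.387), Fermt3 (1.38, adjusted p = 0.383), Lpxn (2.38, adjusted p = 0.401), Flnc (-1.58, adjusted p = 0.383), Lims2 (-0.81, adjusted p = 0.401) and Itga7, the laminin-binding integrin chain of muscle (-0.89, adjusted p = 0.435). The others were Itgb5 (1.03), the actinin Actn1 (1.50), Efs (0.56), Sh2d3c (-0.35), Arhgap26 (-0.63), Ctnnd1 (-0.07), Arpc1a (-0.05), Cavin3 (0.23), Cav2 (0.06), Cavin4 (-0.87) and Cav3 (-0.52), with adjusted p of 0.507 to 0.949.

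For the 3 of the 10 with the largest differences, the genes most alike over the 10 libraries were taken by Pearson correlation of log2 CPM, with no p-value, since the libraries fall apart by experiment. Spearman's rho of these pairs was 0.855 to 0.988. Nedd9 was most like Fam171b (r = 0.98) and Sgk1 (r = 0.98), a kinase induced by serum and glucocorticoids. Sgk1 had 124 and 200.1 CPM in the labelled KO libraries against 127 and 80.2 CPM in WT, and 79.1, 53.5 and 88.2 CPM in IBR against 48.7, 57.9 and 53.8 CPM in CTL. Like Nedd9 it was highest in KO337. Ptk2b was most like Dtx1 (r = 0.96), which reached at most 2.72 CPM, and the sorting nexin Snx8 (r = 0.94). Vcl was most like Plcd4 (r = 0.95), at 0.308 to 0.989 CPM, and Pla2r1 (r = 0.94), a receptor of secreted phospholipase A2.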

How the data were processed

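Per the labels' protocols, poly(A) RNA from left atria went into strand-marking libraries. What was deposited is a table of raw read counts per Ensembl gene for each library. STAR, HTSeq and edgeR and the build mm9 are named in the submitters' processing notes; no version or annotation is given in the sources used here. File names say that counting ignored strand. The 5 rows for unassigned reads stayed out (no feature 13.5% to 19.9% of records, not unique 11.8% to 27.4%, ambiguous 3.14% to 3.99%).

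Groups came from the titles. Genes were kept by filterByExpr (minimum count 10, minimum total 15) and scaled by TMM, with factors of 1.16 and 1.23 in KO26 and KO337 and 0.87 to 1.03 elsewhere. All libraries entered 1 quasi-likelihood model of 4 group means (edgeR 4.0.16, R 4.3.3; 6 residual degrees of freedom), and p-values were adjusted by Benjamini-Hochberg over 15364 genes. The biological coefficient of variation was 0.221, against 0.169 for CTL with IBR and 0.294 for WT with KO, so WT and KO vary more than the shared value allows for. "Called", "rose" and "fell" mean an adjusted p under 0.05. Intervals are 95% intervals of the fit. With 3 counts as a floor, a library resolves 0.136 to 0.216 CPM. The fits were tested on simulated counts drawn with the same spread per gene in every group, which leaves the larger spread of WT with KO untested.

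Symbols were found for 87.4% of identifiers. Lengths and overlaps came from GENCODE vM21, of another build than mm9, so coordinates are given only for RefSeq promoters; 6 of the 10 genes had one. No 2 libraries of a group agreed within sampling noise.

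The members, the 5 companion lists and the 8 marker lists were chosen with earlier results of these data known. Named are the 10 members, Csk, the 2 companion genes per list, comparison and direction with the smallest p, the 2 most abundant genes per marker list, and the 2 genes most alike to the 3 members with the largest difference. Some genes chosen this way are not reported here but were kept in every count and test. Alternatives were RLE scaling, no scaling factors, no filter, DESeq2 1.42.0, separate fits, a replicate block, leaving out each library and, for levels, the longest transcript.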

Additional observations from a re-analysis of the deposited data

How the results depend on the processing

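In IBR against CTL 0 of the 10 genes passed under all alternatives. In KO against WT 0 passed under all alternatives except without KO26, so that leaving out 1 library gave 0 to 4. Counts of all genes called moved far more. In KO against WT they were 467 higher and 679 lower with no filter, 900 higher and 930 lower with DESeq2, 0 and 0 with WT and KO fitted alone, 66 lower without scaling factors, and 1 to 1830 higher and 11 to 2103 lower with 1 library left out. In IBR against CTL 2 were lower with no filter and 2 with DESeq2. For the difference of both effects 4 were lower, against 0 without scaling factors, 16 higher and 68 lower with no filter, 51 higher and 89 lower with DESeq2, and 0 to 622 higher and 0 to 942 lower with 1 library left out. Of the companion genes, 14 were called in KO against WT with no filter, 22 with DESeq2, 0 with WT and KO alone, and 0 to 39 with 1 library left out, and for the difference of both effects 0 to 18. The median of the 10 genes in KO against WT was 0.35 without scaling factors and -0.088 to 0.14 with 1 library left out, and for the difference 0.23 and -0.090 to 0.11.

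Some signs turned, also of values as far from 0 as those of Nedd9 (0.37, difference of both effects) and of Cttn and Pxn (0.25 and 0.24, KO against WT). Without scaling factors Crk stood at 0.0026 in IBR against CTL, Crk and Tln1 at 0.10 and 0.22 in KO against WT, and at 0.10 and 0.010 in the difference. Ptk2 stood at -0.013 in the difference with no filter, and Tln1 at 0.025 with WT and KO fitted alone. With 1 library left out, values in IBR against CTL ran from -0.044 to 0.12 for Bcar1, -0.17 to 0.014 for Crk, -0.047 to 0.081 for Cttn, -0.072 to 0.13 for Ptk2, -0.058 to 0.20 for Ptk2b and -0.054 to 0.28 for Pxn. In KO against WT they ran from -0.081 to 0.49 for Cttn, -0.069 to 0.23 for Ptk2, -0.33 to 0.69 for Pxn and -0.10 to 0.048 for Tln1. For the difference they ran from -0.050 to 0.18 for Bcar1, -0.14 to 0.048 for Crk, -0.12 to 0.47 for Cttn, -0.036 to 0.66 for Nedd9, -0.11 to 0.17 for Ptk2 and -0.47 to 0.58 for Pxn. The cause of these changes was not tested.

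CTL and IBR titles share the numbers 1 to 3, and no label says that the numbers pair libraries. Deviations of same-numbered libraries correlated at 0.016, 0.16 and 0.032, and those of differently numbered ones at -0.197 to 0.182. With so few libraries these values cannot decide whether the numbers pair them. With the replicate block 0 genes were called in IBR against CTL, as without it, and 0 lower in the difference of both effects. WT and KO share no number. With 2 libraries per genotype the widest interval among the 10 in KO against WT was that of Pxn, reaching from 0.691-fold to 2.02-fold.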

Other observations

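Ilk, the integrin-linked kinase gene, was on the integrin list and could not be tested. It stood at 0.172 to 0.432 CPM in all 10 libraries, near the 0.136 to 0.216 CPM that 3 counts give. In GENCODE vM21, Taf10 on the other strand shares 76.7% of the exon bases of Ilk and Rrp8 another 12.9%. Taf10 averaged 39.5 CPM over the libraries. The part of this overlap in the count of Ilk was not tested.

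Markers of the outer lining of the heart had differences of opposite sign in the 2 comparisons. All 5 epicardial and mesothelial markers were positive in IBR against CTL (median 0.65) and negative in KO against WT (median -0.76), and 0 were called in either. Upk3b, a uroplakin gene, had 176, 124 and 174 CPM in IBR against 83.9, 69.3 and 143 CPM in CTL. It had 105 and 51.2 CPM in the labelled KO libraries against 141 and 122 CPM in WT. Its difference of both effects was -1.44 with an adjusted p of 0.424.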
